A study of Mus musculus with 2 samples.

Results

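Complement is a cascade of serum and membrane proteins that marks targets for uptake and calls in leukocytes. The genes described here are *C1qa*, *C1qb* and *C1qc*, whose products form C1q, the recognition molecule of the classical pathway; *C3*, the central component; *C3ar1* and *C5ar1*, the receptors for the anaphylatoxins C3a and C5a; *Cfp* (properdin), which stabilises the C3 convertase of the alternative pathway; and *Cd55*, a membrane-anchored regulator that speeds the decay of the C3 convertases. They were chosen by name, as complement components, receptors and regulators measured in both libraries, and made 8 of the 16383 genes counted. Hepatocytes make most of the complement proteins of plasma, whereas C1q is known as a product of macrophages and dendritic cells, and blood vessel walls rely on CD55 and CD59 to limit complement on their own surface.

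The NASH mice were male C57BL/6 animals given a methionine- and choline-deficient (MCD) diet from 8 weeks of age and for 6 weeks, a model of nonalcoholic steatohepatitis (NASH), and the control mice were of the same sex, strain and age on a chow diet. The livers of 3 mice per diet were pooled, and the nonparenchymal cells were captured as 1 library per diet on BD Rhapsody cartridges, a platform that tags each transcript with a unique molecular identifier (UMI). No map from cells to mice was used here, so the diets were compared as 1 sample against 1, with no test, and every interval below is a 95% interval of counting error alone (exact Poisson for levels, exact binomial for shares). The NASH library kept 3710 of 3893 cells (median 1654 UMIs per cell), against 4209 of 4336 cells in the control library (median 1683 UMIs), with at least 500 UMIs and 200 genes required. The libraries shared 21 cell numbers. Levels are given as CPM, the UMIs of a gene scaled to a common total of UMIs per class, and a difference is called past the threshold at 1.5 times either way among genes with at least 50 UMIs in the class over both libraries.

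The cells were clustered without complement genes and the 21 clusters were named from marker lists. The Kupffer cell-like class (476 NASH and 492 control cells) was led by *Cd163*, *Clec4f*, *Cd5l*, *Folr2* and *Marco*, and the monocyte or macrophage-like class (314 NASH and 104 control cells) by *F13a1*, *Gpnmb* and *Cx3cr1*. Finer clustering of all cells gave a *Cd163* and a *Marco* subcluster of Kupffer cell-like cells. It also gave a *F13a1* subcluster (222 NASH and 74 control cells) and a *Cx3cr1* subcluster (94 NASH and 31 control cells) of monocyte or macrophage-like cells. These subclusters did not hold exactly the same cells as the classes. Liver sinusoidal endothelial cell (LSEC)-like cells formed a cluster led by *Plpp3* (799 NASH and 846 control cells) and one led by *Aass* (772 NASH and 415 control cells), and vascular endothelial cell (VEC)-like cells one led by *Bmp4* and one led by *Adgrg6*. One cluster led by *Ace* had no class. Another, led by *Cp* and *Pigr*, had epithelial keratin and *Epcam* transcripts together with the hepatocyte genes *Alb* and *Ahsg* among its leading genes, and was left unnamed. Hepatocyte-like cells were 1 in NASH and 16 in control, so the main source of plasma complement was nearly absent from the comparison.

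Over all cells, the C1q genes, *C3* and *Cfp* had similar levels in both libraries. *C1qa* stood at 1256 CPM in NASH and 1311 CPM in control, *C1qb* at 2805 CPM in NASH and 2595 CPM in control, *C1qc* at 2868 CPM in NASH and 2934 CPM in control, *C3* at 97.1 CPM in NASH and 104 CPM in control, and *Cfp* at 576 CPM in NASH and 602 CPM in control. The receptors were higher in NASH, with *C3ar1* at 203 CPM in NASH and 156 CPM in control and *C5ar1* at 189 CPM in NASH and 151 CPM in control. *Cd55* was lower, at 409 CPM in NASH and 547 CPM in control. Monocyte or macrophage-like cells were 8.46% of the NASH cells and 2.47% of the control cells, and neutrophil-like cells of the *Cxcr2* cluster 1.91% of the NASH cells and 10.45% of the control cells, so the values that follow were taken within classes.

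**Figure D1:**
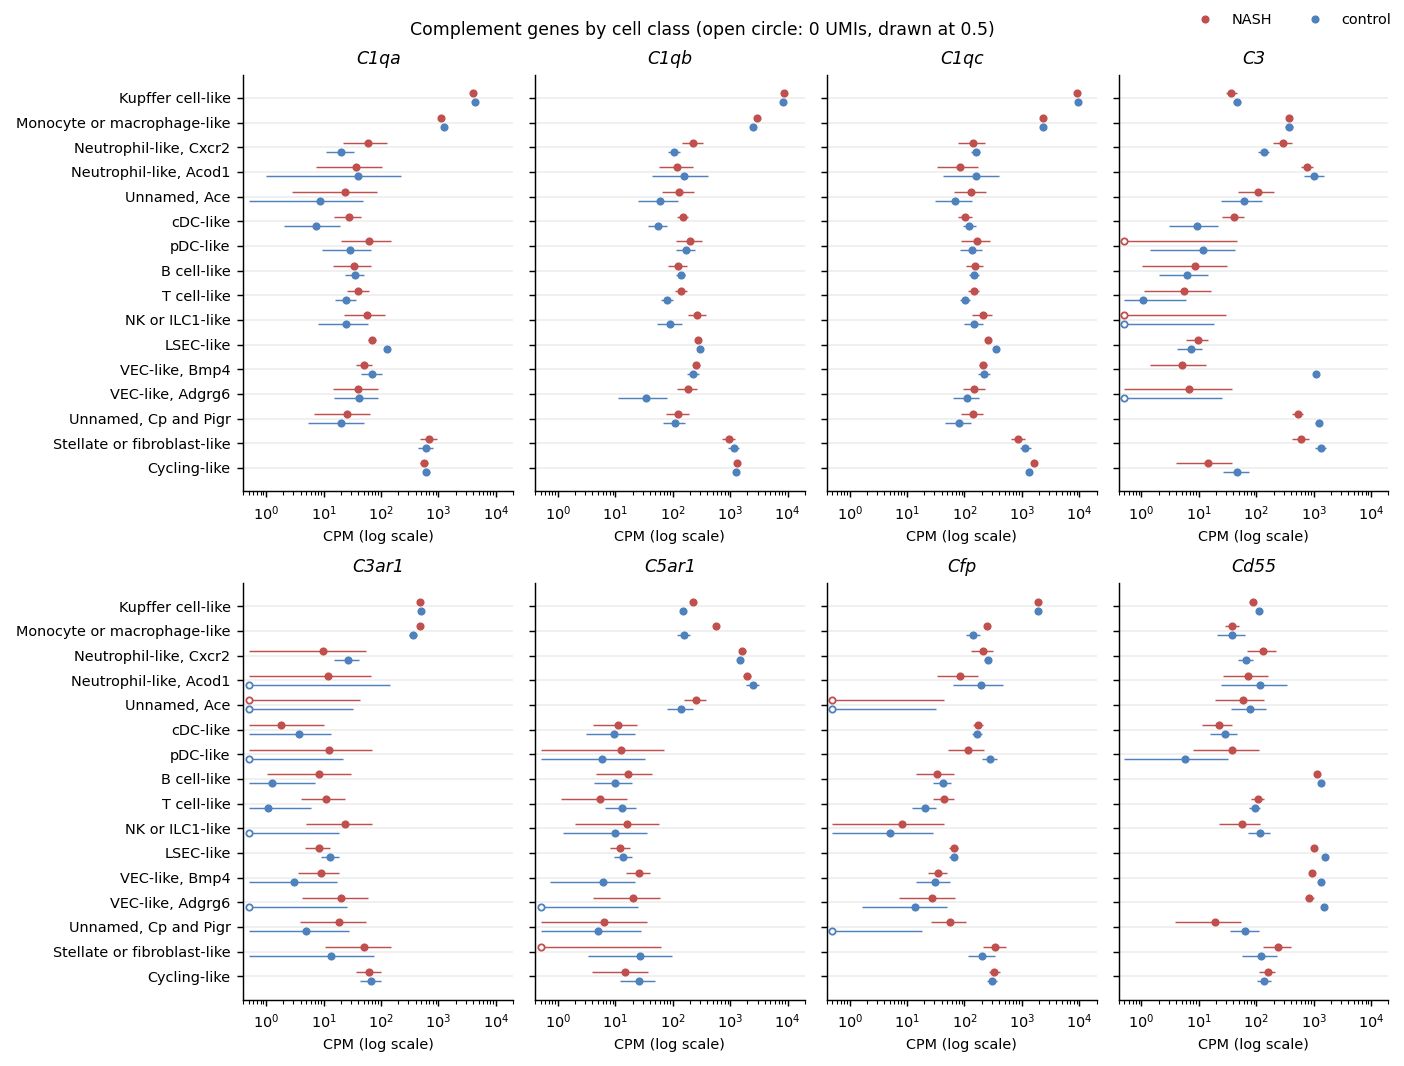
Level of each gene (CPM, log axis) in 16 cell classes of the NASH library (red, above) and the control library (blue, below); lines are 95% Poisson intervals drawn from 0.5 CPM upwards. The C1q genes, C3ar1 and Cfp were high in Kupffer cell-like cells, C5ar1 in neutrophil-like cells and Cd55 in endothelial and B cell-like cells, and the control C3 value of the Bmp4 VEC-like cells came from 3 cells.

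The 3 C1q genes lie side by side on chromosome 4 of GRCm38, all on the minus strand, in the order *C1qb* (136880129 to 136886187), *C1qc* (136889804 to 136893065) and *C1qa* (136895917 to 136898803), within 18675 bases. Promoter sequences were matched in RefSeq (GRCm38.p6) for 7 of the 8 genes, all but *C1qa*. The 250 bases before the start of *C1qb* and *C1qc*, whose levels moved together over the classes, are shown 5′ to 3′ on the gene's strand beside those of the receptors *C3ar1* and *C5ar1*, whose levels differed between the diets in the *F13a1* subcluster. Capitals mark AGGAAGT on either strand (read here as ACTTCCT), a core of the kind bound by ETS factors such as PU.1, and TGANTCA, the core bound by AP-1.
C1qb, chr4:136886201-136886450, minus strand: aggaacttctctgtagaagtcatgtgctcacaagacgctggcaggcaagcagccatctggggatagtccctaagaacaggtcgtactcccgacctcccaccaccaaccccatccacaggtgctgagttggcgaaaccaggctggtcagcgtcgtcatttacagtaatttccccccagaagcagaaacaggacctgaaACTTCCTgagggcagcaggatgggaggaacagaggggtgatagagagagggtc
C1qc, chr4:136892915-136893164, minus strand: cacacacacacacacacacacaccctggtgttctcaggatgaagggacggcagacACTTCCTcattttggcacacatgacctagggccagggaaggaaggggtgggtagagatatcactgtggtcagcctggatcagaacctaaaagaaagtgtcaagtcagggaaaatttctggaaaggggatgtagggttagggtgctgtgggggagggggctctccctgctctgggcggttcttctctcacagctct
C3ar1, chr6:122856158-122856407, minus strand: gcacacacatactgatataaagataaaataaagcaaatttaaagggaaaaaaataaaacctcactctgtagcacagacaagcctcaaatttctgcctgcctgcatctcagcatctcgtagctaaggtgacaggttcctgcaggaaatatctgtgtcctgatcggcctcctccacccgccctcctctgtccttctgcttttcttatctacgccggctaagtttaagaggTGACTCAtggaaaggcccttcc
C5ar1, chr7:16259339-16259588, minus strand: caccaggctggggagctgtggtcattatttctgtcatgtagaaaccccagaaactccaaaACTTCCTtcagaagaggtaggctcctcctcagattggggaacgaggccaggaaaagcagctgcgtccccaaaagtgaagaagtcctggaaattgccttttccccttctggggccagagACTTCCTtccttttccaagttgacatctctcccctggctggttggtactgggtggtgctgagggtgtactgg
AGGAAGT occurred once in *C1qb*, 53 to 47 bases before the start, once in *C1qc*, 195 to 189 bases before it, and at 190 to 184 and 72 to 66 bases before the start of *C5ar1*. TGANTCA occurred in *C3ar1*, 22 to 16 bases before the start. Starts here are those of RefSeq, and the gene bounds given in the text are those of GENCODE, which begin farther upstream for *C1qc*, *C3ar1* and *C5ar1*. The windows of these genes therefore overlap the GENCODE gene, and both *C5ar1* matches lie within it. Neither was found in the same window of *C3*, *Cfp* or *Cd55*. Of 32851 RefSeq promoters of the same length, 7.69% held AGGAAGT and 6.75% held TGANTCA. The motifs were chosen after the promoters had been read, and a match is a description of letters, not evidence of binding.

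C1q was a Kupffer cell-like product under both diets, at nearly the same level. *C1qa*, the A chain, had 4078 CPM (3997 to 4161) in NASH Kupffer cell-like cells, against 4351 CPM (4279 to 4424) in control (log2 ratio −0.09). *C1qb*, the B chain, had 8614 CPM in NASH and 8484 CPM in control (log2 ratio 0.02). *C1qc*, the C chain, had 9248 CPM in NASH and 9643 CPM in control (log2 ratio −0.06). None of these ratios neared 1.5 times. Transcripts were found in nearly all cells of the class, *C1qa* in 98.3% of NASH and 97.8% of control cells and *C1qb* in 99.8% of NASH and 100% of control cells, and no cell of either library lacked all 3 genes. A NASH Kupffer cell-like cell held a median of 105 C1q UMIs (quartiles 45 and 157), against 155 (63.5 and 207.25) in control, while the median depth of these cells was 4579 UMIs in NASH and 6172 UMIs in control.

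The share of a library's C1q transcripts that came from Kupffer cell-like cells was smaller in NASH. Of all *C1qa* UMIs, 82.2% in NASH and 91.8% in control were in Kupffer cell-like cells. For *C1qb* the shares were 77.8% in NASH and 90.5% in control, and for *C1qc* 81.7% in NASH and 91.0% in control. In NASH the rest lay mostly in the monocyte or macrophage-like class, which had more cells there than in control.

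Within the monocyte or macrophage-like class, the C1q level was close in both libraries. *C1qa* had 1124 CPM in NASH and 1235 CPM in control, *C1qb* 2969 CPM in NASH and 2512 CPM in control (log2 ratio 0.24), and *C1qc* 2357 CPM in NASH and 2363 CPM in control. The subclusters differed far more than the diets did. The *Cx3cr1* subcluster held 15526 CPM of C1q in NASH and 16026 CPM in control, whereas the *F13a1* subcluster held 3113 CPM in NASH and 2378 CPM in control. The median cell of the *F13a1* subcluster had 2 C1q UMIs in NASH (quartiles 1 and 10.75) and 1 in control (0 and 2). In the *Cx3cr1* subcluster the median was 62 C1q UMIs in either library. Of the 2 subclusters, *F13a1* was the one with higher summed C1q in NASH. *C1qb* was higher in NASH in both. It had 1529 CPM in NASH and 1092 CPM in control in *F13a1* (log2 ratio 0.48), and 6876 CPM in NASH and 6274 CPM in control in *Cx3cr1* (log2 ratio 0.13). The Kupffer cell list summed to 3547 CPM in the NASH class and 1753 CPM in the control class, and its part in the C1q level was not tested.

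In the order of levels over the 14 classes with at least 20 cells in each library, each C1q gene was highest in Kupffer cell-like cells, then in monocyte or macrophage-like cells, then in cycling cells, with intervals that did not overlap between these neighbours in either library. The cycling cells' C1q came from few cells: 3 cells held 86.5% of the *C1qa* UMIs in NASH and 59.9% in control. The 16 NASH and 19 control stellate or fibroblast-like cells were alike in this, with 97.5% of their *C1qa* UMIs in 3 cells in NASH and 93.3% in control. LSEC-like cells came next in the order, and below them the intervals of neighbours overlapped.

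C1q transcripts were also counted in cells that are not known to make it. In B cell-like cells, *C1qa* was seen in 4.12% of NASH and 3.34% of control cells, *C1qb* in 12.9% in NASH and 12.3% in control, and *C1qc* in 17.0% in NASH and 14.6% in control, at median depths of 1142.5 UMIs in NASH and 1120 UMIs in control. Expected shares at a common depth of 1000 UMIs, called thinned shares here, used the cells at least that deep, which were 130 of 194 NASH and 439 of 628 control B cell-like cells. They were 14.2% in NASH and 10.9% in control for *C1qb* in B cell-like cells, against 99.6% in NASH and 99.8% in control for Kupffer cell-like cells. Shares at or below those of the B cell-like cells are therefore not told apart from counts in cells not known to make C1q. LSEC-like cells lay above the B cell-like shares, with *C1qb* in 29.0% of NASH and 21.7% of control cells (thinned 21.5% in NASH and 14.0% in control).

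In LSEC-like cells *C1qa* had 71.0 CPM in NASH and 127 CPM in control (log2 ratio −0.84), past the threshold, while *C1qb* had 277 CPM in NASH and 297 CPM in control and *C1qc* 258 CPM in NASH and 357 CPM in control. The cluster led by *Plpp3* carried the difference, with *C1qa* at 55.6 CPM in NASH and 138 CPM in control. In the cluster led by *Aass* it ran the other way, with *C1qa* at 102 CPM in NASH and 72.2 CPM in control. In the control *Plpp3* cluster 3 of 846 cells held 175 of its 272 *C1qa* UMIs. For each of the other chains, 3 cells held 308 of its 609 *C1qb* UMIs and 366 of its 725 *C1qc* UMIs. The control levels of all 3 genes in the class thus rested in large part on few cells. Without the 5% of cells with the highest doublet scores the *C1qa* log2 ratio of the class was −0.29, and at the finer resolution −0.40, both within 1.5 times. The Kupffer cell gene *Clec4f* moved in the same direction in each cluster (129 CPM in NASH and 212 CPM in control in the *Plpp3* cluster, and 208 CPM in NASH and 129 CPM in control in the *Aass* cluster), and its part in the C1q difference was not tested.

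Low C1q counts were found in the other leukocytes too, conventional (cDC) and plasmacytoid (pDC) dendritic cell-like cells included. *C1qb* had 141 CPM in NASH and 79.1 CPM in control T cell-like cells, 266 CPM in NASH and 90.1 CPM in control in NK cell-like cells, 149 CPM in NASH and 54.5 CPM in control in cDC-like cells, and 227 CPM in NASH and 106 CPM in control in neutrophil-like cells of the *Cxcr2* cluster. In NK cell-like cells of NASH 19 of the 33 *C1qb* UMIs lay in 3 cells. The thinned shares of T cell-like cells (13.8% in NASH and 7.22% in control) and cDC-like cells (12.3% in NASH and 6.58% in control) were below those of B cell-like cells, and those of NK cell-like cells (14.4% in NASH and 10.2% in control) were close to them. These counts are therefore not told apart from those of B cell-like cells. Dendritic cells are a known source of C1q, and the source of the counts was not tested. The Kupffer cell list summed to 333 CPM in NASH and 240.4 CPM in control T cell-like cells, 322 CPM in NASH and 255 CPM in control NK cell-like cells, and 360.4 CPM in NASH and 257 CPM in control cDC-like cells, and its part was not tested. *C1qb* was the 1 member past 1.5 times of 3 with enough UMIs in T cell-like cells (11.0% of 4505 genes), of 2 in NK cell-like cells (14.3% of 1387) and of 3 in cDC-like cells (13.4% of 3479). In cycling cells 0 of 5 members were past it (32.5% of 2642 genes), in the *Acod1* cluster 0 of 2 (58.4% of 406), and in stellate or fibroblast-like cells 1 of 4, *C3* (23.3% of 460).

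The proportions of the 3 chains differed between classes. Of the C1q UMIs of Kupffer cell-like cells, *C1qa* made 18.6% in NASH and 19.4% in control, *C1qb* 39.3% in NASH and 37.7% in control, and *C1qc* 42.2% in NASH and 42.9% in control. In the *F13a1* subcluster *C1qb* was the largest share, at 49.1% in NASH and 45.9% in control, with *C1qc* at 34.9% in NASH and 38.2% in control. *C1qa* made 11.7% (10.1 to 13.6) of the C1q UMIs of LSEC-like cells in NASH and 16.2% in control, and 11.0% of those of B cell-like cells in either library. The *C1qa* share of NASH LSEC-like cells and of control B cell-like cells (11.0%, 7.45 to 15.5) lay below the range of their library's Kupffer cell-like cells. The *C1qb* share was higher in NASH than in control in Kupffer cell-like, *F13a1*, *Cx3cr1* and LSEC-like cells alike, and the intervals of the *F13a1* subcluster overlapped. The control shares of LSEC-like cells rested in part on few cells. In their *Plpp3* cluster, 3 cells per gene held 64.3% of the *C1qa*, 50.6% of the *C1qb* and 50.5% of the *C1qc* UMIs. Their part in the shares was not tested.

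**Figure D2:**
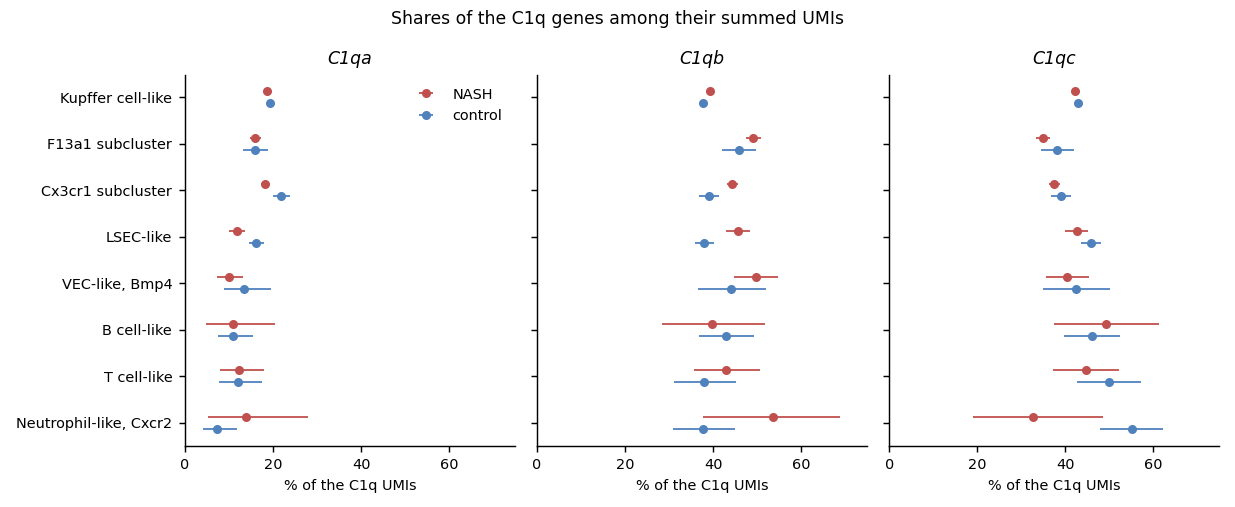
Share of C1qa, C1qb and C1qc among their summed UMIs (%) in 8 groups of cells of the NASH (red, above) and control (blue, below) libraries, with exact 95% binomial intervals. C1qb made 49.1% of the C1q UMIs in the NASH F13a1 subcluster and 39.3% in NASH Kupffer cell-like cells, and C1qa made 11.0% in B cell-like cells of either library.

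*C3*, whose cleavage all complement pathways share, was highest in different cells from C1q. Its gene lies on chromosome 17 (57203970 to 57228136, minus strand). In the cluster led by *Cp* and *Pigr*, *C3* had 523 CPM (416 to 648; 83 UMIs) in NASH, against 1219 CPM (1071 to 1382; 244 UMIs) in control (log2 ratio −1.22). It was found in 68.6% of NASH cells and 84.1% of control cells of that cluster (thinned 34.7% in NASH and 57.1% in control). This was 1 of 1 member with enough UMIs in the cluster, where 16.7% of 1645 genes were past 1.5 times. The make-up of the cluster differed as well, with the hepatocyte list at 17031 CPM in NASH and 7581 CPM in control, the neutrophil list at 353 CPM in NASH and 1474 CPM in control, and the NK cell list at 18.9 CPM in NASH and 1569 CPM in control. The part of these in the *C3* difference was not tested.

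The monocyte or macrophage-like cells were another source, at nearly the same level in both libraries. *C3* had 378 CPM (535 UMIs) in NASH and 375 CPM (141 UMIs) in control (log2 ratio 0.01), and was found in 43.6% of NASH and 46.2% of control cells (thinned 22.0% in NASH and 24.6% in control). This class held 59.6% of the *C3* UMIs of the NASH library and 12.0% of those of the control library. Of the finer subclusters, *F13a1* had *C3* at 521 CPM in NASH and 599 CPM in control, while the *Cx3cr1* subcluster held 4 UMIs in each library. The *F13a1* subcluster had 163 control *C3* UMIs, more than the class, so it also held cells from outside the class. For C1q the order of these subclusters was the reverse.

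Neutrophil-like cells of the *Cxcr2* cluster had *C3* at 287 CPM (192 to 412; 29 UMIs) in NASH and 134 CPM (108 to 164; 92 UMIs) in control (log2 ratio 1.12). In NASH, 13 of the 29 UMIs lay in 3 of the 71 cells. The monocyte and macrophage list in these cells summed to 13318 CPM in NASH and 7546 CPM in control, and the LSEC list to 5379 CPM in NASH and 1606 CPM in control. Their part in the *C3* level was not tested. The smaller neutrophil-like cluster led by *Acod1* (48 NASH and 14 control cells) had 770 CPM in NASH and 1025 CPM in control. It held 64 UMIs in NASH and 26 UMIs in control, with overlapping intervals. Its make-up differed too, with the neutrophil list at 29826 CPM in NASH and 64201 CPM in control. The monocyte and macrophage list there summed to 15869 CPM in NASH and 5560 CPM in control, and the part of either list was not tested. Kupffer cell-like cells had 36.7 CPM in NASH and 46.6 CPM in control. In NK cell-like cells *C3* was found in 0 of 75 NASH cells and 0 of 114 control cells, which allows up to 29.7 CPM in NASH and 18.5 CPM in control.

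The largest *C3* difference of the data, in *Bmp4* VEC-like cells, rested on 3 cells. This class held 4 UMIs (5.13 CPM) in 263 NASH cells and 364 UMIs (1104 CPM) in 102 control cells. The control UMIs came from 3 cells with 282, 43 and 39 of them. These cells had 221, 103 and 74 UMIs of *Dcn*, a fibroblast proteoglycan, and 0, 1 and 0 UMIs of the endothelial gene *Pecam1*. They also had 37, 4 and 2 UMIs of the keratin gene *Krt19* and 17, 1 and 0 UMIs of *Msln* (mesothelin). The cell type of these cells was not tested. Without them the class held 4 *C3* UMIs in NASH and 0 in control, too few to compare. In the order of levels over the 14 classes, the *Cp* and *Pigr* cluster was first in both libraries. The monocyte or macrophage-like class followed it in NASH, where the intervals of the neutrophil-like class overlapped with it, and also in control once these 3 cells were set aside.

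Of the receptors, *C3ar1* (chromosome 6, 122847138 to 122856161, minus strand), a G protein-coupled receptor on myeloid cells, was found in the Kupffer cell-like and the monocyte or macrophage-like classes. Kupffer cell-like cells had 487 CPM (459 to 516) in NASH and 494 CPM (470 to 519) in control (log2 ratio −0.02), in 69.3% of NASH and 72.8% of control cells (thinned 33.6% in NASH and 33.7% in control). B cell-like cells had it in 1.03% of NASH and 0.16% of control cells. The monocyte or macrophage-like class had 471 CPM in NASH and 362 CPM in control (log2 ratio 0.38, 0.11 to 0.66; 0.72 with complement genes allowed in the clustering). Its interval overlapped with that of the Kupffer cell-like class in NASH and lay below it in control, and each other class of the 14 was below 70 CPM. Kupffer cell-like cells held 60.9% of the *C3ar1* UMIs of the NASH library and 87.5% of those of the control library.

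*C5ar1* (chromosome 7, 16246743 to 16259540, minus strand), the receptor through which C5a draws in neutrophils and monocytes, was highest in neutrophil-like cells. In the *Acod1* cluster it had 1985 CPM (1694 to 2312) in NASH and 2484 CPM (1909 to 3179) in control. In the *Cxcr2* cluster it had 1641 CPM (1401 to 1911) in NASH and 1479 CPM (1390 to 1573) in control (log2 ratio 0.15). The intervals of the diets overlapped in both clusters. The make-up of the *Acod1* cluster differed between the diets, as given above, and its part in the *C5ar1* level was not tested. It was found in 77.5% of NASH and 81.4% of control cells of the *Cxcr2* cluster (thinned 70.5% in NASH and 72.1% in control), against 2.06% of NASH and 1.27% of control B cell-like cells. The *Cxcr2* cluster held 9.51% of the *C5ar1* UMIs in NASH and 59.0% in control.

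The monocyte or macrophage-like class followed the neutrophil-like clusters in NASH and differed between the diets. *C5ar1* had 558 CPM (519 to 598; 790 UMIs) in NASH and 154 CPM (117 to 200; 58 UMIs) in control, 3.58 times as high (log2 ratio 1.84, 1.47 to 2.26). It was found in 58.3% of NASH and 27.9% of control cells (thinned 31.5% in NASH and 12.2% in control), and these cells held 45.3% of the *C5ar1* UMIs in NASH and 3.37% in control. With *Cfp*, described below, it was 1 of 2 members of 8 past 1.5 times in this class, both higher, where 26.6% of 4451 genes were past it either way and 12.0% higher in NASH. In control the intervals of the monocyte or macrophage-like class, Kupffer cell-like cells (153 CPM) and the *Ace* cluster (139 CPM) overlapped.

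The difference lay in the *F13a1* subcluster for both receptors. *C5ar1* had 620 CPM (573 to 670; 639 UMIs) in NASH and 55.1 CPM (30.9 to 90.9; 15 UMIs) in control, 10.9 times as high (log2 ratio 3.45, 2.76 to 4.34). *C3ar1* had 347 CPM (312 to 385; 358 UMIs) in NASH and 36.8 CPM (17.6 to 67.6; 10 UMIs) in control, 9.02 times as high (log2 ratio 3.17, 2.35 to 4.31). More of the NASH cells carried either transcript: *C5ar1* was found in 57.7% of NASH and 14.9% of control cells (thinned 32.9% in NASH and 4.62% in control), and *C3ar1* in 36.5% in NASH and 6.76% in control (thinned 20.7% in NASH and 2.91% in control). Of 7 members with enough UMIs, 3 were past 1.5 times, all higher, where 33.2% of 3695 genes were past it either way and 15.0% higher in NASH. The median log2 ratio of these 7 was 0.48, against −0.07 over all genes with enough UMIs.

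The *Cx3cr1* subcluster did not share it. *C5ar1* had 379 CPM in NASH (151 UMIs) and 379 CPM in control (43 UMIs), and *C3ar1* had 802 CPM in NASH and 1094 CPM in control (log2 ratio −0.45). Of its 6 members with enough UMIs 1 was past 1.5 times (*Cfp*), where 24.4% of 1921 genes were.

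The cells of the *F13a1* subcluster differed in other genes as well. The monocyte genes *Ly6c2* (930 CPM in NASH and 2293 CPM in control) and *Ccr2* (1952 CPM in NASH and 4984 CPM in control) were lower in NASH. *Gpnmb* (1699 CPM in NASH and 14.7 CPM in control) and *Cd9* (741 CPM in NASH and 62.5 CPM in control), which mark lipid-associated macrophages, were higher. The macrophage gene *Cx3cr1* was lower (583 CPM in NASH and 731 CPM in control). The Kupffer cell list as a whole was higher, summing to 3615 CPM in NASH and 1507 CPM in control, but its genes went both ways. *Clec4f* (251 CPM in NASH and 136 CPM in control) and *Cd5l* (493 CPM in NASH and 151 CPM in control) were higher. *Marco* (161 CPM in NASH and 224 CPM in control) and *Cd163* (21.3 CPM in NASH and 25.7 CPM in control) were lower. The neutrophil genes *Cxcr2* (1.94 CPM in NASH and 51.5 CPM in control) and *Csf3r* (102 CPM in NASH and 331 CPM in control) were lower in NASH, while the neutrophil list of 16 genes as a whole summed to 2661 CPM in NASH and 1580 CPM in control. Cells were then split by whether they held a *Gpnmb* UMI, a choice made after these values were seen. The 88 NASH cells with one had *C5ar1* at 638 CPM (569 to 714) and the 134 NASH cells without one at 604 CPM (541 to 673), while the 72 control cells without one had 52.9 CPM (28.9 to 88.7). *C3ar1* was at 436 CPM (379 to 499) in NASH cells with *Gpnmb* and 270 CPM (229 to 317) in those without, against 37.8 CPM in control cells without. *C5ar1* thus differed between the diets among cells with no *Gpnmb* UMI too, and these cells also differed in *Cd9* (416 CPM in NASH and 64.2 CPM in control). *Ly6c2* was at 1277 CPM in the NASH cells without *Gpnmb* and 2323 CPM in the control cells without, and the part of these marker differences in the receptor levels was not tested.

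**Figure D3:**
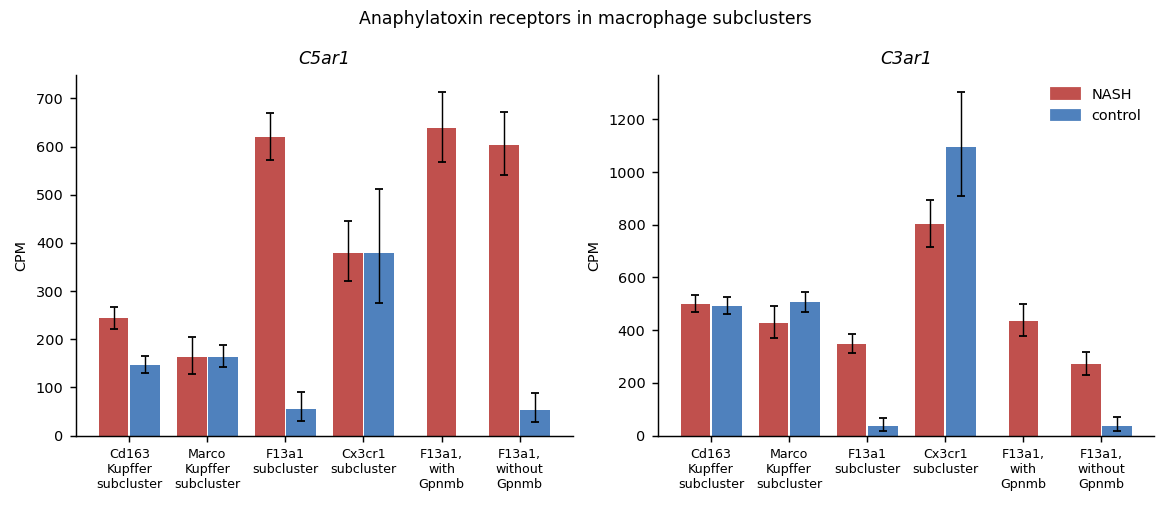
Level (CPM, bars from 0, with 95% Poisson intervals) of C5ar1 and C3ar1 in macrophage subclusters of the NASH (red, left) and control (blue, right) libraries, and in F13a1 cells with and without a Gpnmb UMI; control F13a1 cells with one were 2 and are not drawn. C5ar1 stood at 620 CPM in NASH and 55.1 CPM in control F13a1 cells, and at 638 CPM in NASH F13a1 cells with Gpnmb and 604 CPM in those without.

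In Kupffer cell-like cells *C5ar1* had 227 CPM in NASH and 153 CPM in control (log2 ratio 0.57, 0.39 to 0.75), just within 1.5 times, and was found in 50.6% of NASH and 42.7% of control cells (thinned 18.9% in NASH and 12.1% in control). None of the 8 members was past 1.5 times in this class, where 8.70% of 6195 genes were. In the *Cd163* subcluster alone *C5ar1* had 243 CPM in NASH and 147 CPM in control (log2 ratio 0.73), and in the *Marco* subcluster 162 CPM in NASH and 164 CPM in control. The *Cd163* subcluster had 2 of 8 members past 1.5 times (8.96% of 5659 genes), *C5ar1* higher and *C3* lower (23.4 CPM in NASH and 37.2 CPM in control). The *Marco* subcluster also had 2 of 8 (11.9% of 4393 genes), with *C3* higher, at 80.1 CPM in NASH and 41.4 CPM in control, and *Cd55* lower, at 57.9 CPM in NASH and 118 CPM in control. It counted 39 NASH and 111 control cells, with *Gpnmb* at 263 CPM in NASH and 0.74 CPM in control.

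*Cfp* (chromosome X, 20925454 to 20931555, minus strand), which encodes properdin, the positive regulator of the alternative pathway, was again a Kupffer cell-like transcript. It had 1926 CPM (1870 to 1983) in NASH Kupffer cell-like cells and 1941 CPM (1893 to 1991) in control (log2 ratio −0.01), in 95.2% of NASH and 94.9% of control cells (thinned 81.4% in NASH and 83.6% in control). These cells held 84.7% of its UMIs in NASH and 89.2% in control. LSEC-like cells, at median depths of 1226 UMIs in NASH and 1615 UMIs in control, had it in 8.34% of NASH and 6.58% of control cells (thinned 5.97% in NASH and 3.86% in control).

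In the monocyte or macrophage-like class *Cfp* had 248 CPM (351 UMIs) in NASH and 141 CPM (53 UMIs) in control, 1.74 times as high (log2 ratio 0.80, 0.39 to 1.26). Unlike the receptors it was higher in both subclusters, by log2 ratios of 0.77 in *F13a1* (191 CPM in NASH and 110 CPM in control) and 0.82 in *Cx3cr1* (427 CPM in NASH and 238 CPM in control). The Kupffer cell list, which was higher in the NASH cells of this class, was given above. In pDC-like cells *Cfp* went the other way, at 114 CPM in NASH (9 UMIs) and 275 CPM in control (47 UMIs), the 1 member with enough UMIs there (15.9% of 1054 genes past 1.5 times). After the Kupffer cell-like class, the next classes in either library were cycling, neutrophil-like and monocyte or macrophage-like cells and both kinds of dendritic cells, at 114 to 332 CPM in NASH and 141 to 298 CPM in control, and many of their intervals overlapped. The *Ace* cluster had no *Cfp* UMI in either library.

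*Cd55* (chromosome 1, 130439027 to 130462744, minus strand) was an endothelial and B cell-like transcript, and it was lower in NASH in each endothelial cluster. LSEC-like cells had 1008 CPM (967 to 1051; 2216 UMIs) in NASH and 1579 CPM (1529 to 1631; 3749 UMIs) in control (log2 ratio −0.65, −0.72 to −0.57), in 63.4% of NASH and 82.0% of control cells (thinned 58.8% of 1025 NASH and 73.5% of 970 control cells). The lowest shares of the 14 classes were 6.67% in NASH, in NK cell-like cells, and 1.82% in control, in pDC-like cells. *Cd55* and *C1qa* were 2 of 6 members past 1.5 times in LSEC-like cells, both lower, where 10.4% of 6268 genes were past it either way and 5.60% lower in NASH.

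The *Plpp3* cluster had 1029 CPM in NASH and 1647 CPM in control (log2 ratio −0.68, −0.77 to −0.59), in 73.0% of NASH and 90.7% of control cells. The *Aass* cluster, which held a larger part of the NASH LSEC-like cells, had 965 CPM in NASH and 1247 CPM in control (log2 ratio −0.37, −0.54 to −0.20). The *Adgrg6* VEC-like cells had 843 CPM in NASH (125 UMIs) and 1517 CPM in control (221 UMIs; log2 ratio −0.85, −1.18 to −0.53), the 1 member with enough UMIs there (15.4% of 1232 genes past 1.5 times). The *Bmp4* VEC-like cells had 923 CPM in NASH and 1350 CPM in control (log2 ratio −0.55). Without the 3 control cells rich in *Dcn* the control level was 1460 CPM and the log2 ratio −0.66, past 1.5 times. *C3* was the 1 of 5 members past 1.5 times in this class with these cells (17.3% of 3932 genes), and *C1qa* and *Cd55* were the 2 of 4 without them (16.6% of 3856 genes). This *C1qa* value rested on 40 UMIs in NASH and 23 UMIs in control, and 21 of the 23 lay in 3 cells.

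B cell-like cells had *Cd55* at 1141 CPM (1009 to 1285) in NASH and 1356 CPM (1276 to 1440) in control (log2 ratio −0.25, −0.45 to −0.06), in 68.0% of NASH and 73.7% of control cells, and 0 of 3 members were past 1.5 times there (13.8% of 3617 genes). In NASH the order was B cell-like, LSEC-like, *Bmp4* and *Adgrg6* VEC-like cells, and in control LSEC-like, *Adgrg6* VEC-like, B cell-like and *Bmp4* VEC-like cells. In NASH the intervals of each pair of neighbours in this order overlapped, and in control so did those of all neighbours. Every other class of the 14 was below 160 CPM. Neutrophil-like cells of the *Cxcr2* cluster had 129 CPM in NASH (13 UMIs) and 66.9 CPM in control (46 UMIs), one of 3 of 6 members past 1.5 times and higher there with *C3* and *C1qb* (27.0% of 2140 genes either way, 13.9% higher in NASH). Without the cells Scrublet marks as doublets, which were 3 in the NASH and 56 in the control library, its log2 ratio there was 2.10, against 0.98 with them. The part of the LSEC list, higher in these NASH cells as given above, in the *Cd55* level was not tested.

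Of the other membrane regulators of the endothelium, *Cd59a* differed in the opposite direction in LSEC-like cells and *Cr1l* in the same direction. *Cd59a*, which blocks the membrane attack complex, had 1465 CPM in NASH and 1120 CPM in control cells of the *Plpp3* cluster and 1450 CPM in NASH and 1135 CPM in control cells of the *Aass* cluster, higher in NASH in both. In *Bmp4* VEC-like cells it had 2176 CPM in NASH and 1850 CPM in control, and in *Adgrg6* VEC-like cells 1342 CPM in NASH and 1565 CPM in control. *Cr1l*, which like *Cd55* acts on the C3 convertases, was lower, at 202 CPM in NASH and 272 CPM in control in LSEC-like cells (log2 ratio −0.43), 261 CPM in NASH and 352 CPM in control in *Bmp4* VEC-like cells, and 243 CPM in NASH and 350 CPM in control in *Adgrg6* VEC-like cells. *Pecam1*, a gene of endothelial cells in general, had 1730 CPM in NASH and 1570 CPM in control cells of the *Plpp3* cluster, and the LSEC gene *Clec4g* 6997 CPM in NASH and 8470 CPM in control. The whole LSEC list summed to 68098 CPM in NASH and 75668 CPM in control LSEC-like cells, and its part in the *Cd55* difference was not tested.

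**Figure D4:**
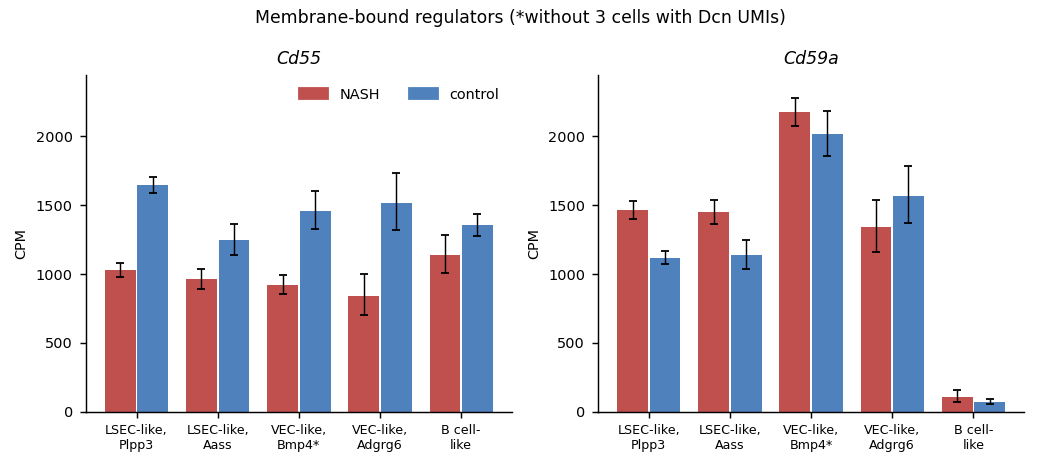
Level (CPM, bars from 0, with 95% Poisson intervals) of Cd55 and Cd59a in 4 endothelial clusters and in B lymphocyte-like cells of the NASH (red, left) and control (blue, right) libraries. Cd55 was lower in NASH in each of the 4 endothelial clusters (1029 against 1647 CPM in the Plpp3 cluster), and Cd59a was higher in NASH in both LSEC-like clusters.

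**Figure D5:**
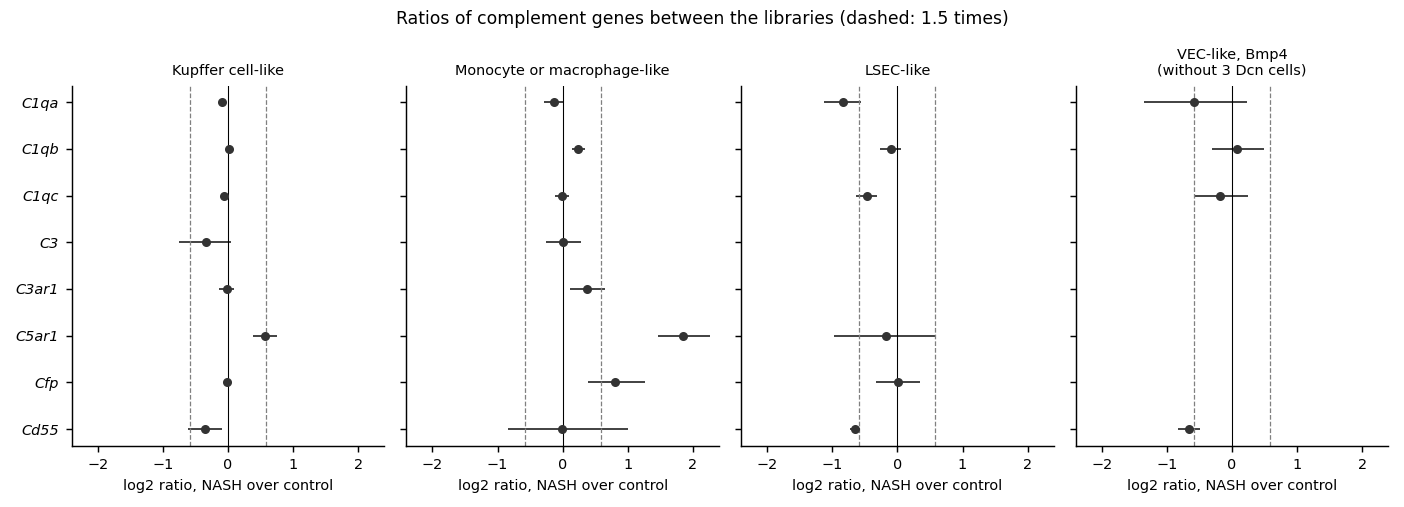
Log2 ratio of the CPM (NASH over control, with 95% intervals of counting error) of the members with at least 50 UMIs in 4 classes; dashed lines mark 1.5 times. C5ar1 in the monocyte or macrophage-like class (1.84) lay farthest from 0 in these panels, and no member passed the lines in Kupffer cell-like cells.

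The other complement genes, 45 of which were measured, were read in the same classes. In Kupffer cell-like cells 20 of them had enough UMIs, 7 were higher and 1 was lower, beside 8.70% of all genes past 1.5 times either way. Among the higher ones, 4 belong to the lectin pathway: *Masp1*, a protease, had 33.7 CPM in NASH and 17.4 CPM in control, and the collectins *Colec10* 36.3 CPM in NASH and 14.9 CPM in control, *Colec11* 26.0 CPM in NASH and 7.29 CPM in control and *Colec12* 78.5 CPM in NASH and 34.6 CPM in control. *Itgax*, a chain of complement receptor 4, had 58.1 CPM in NASH and 8.24 CPM in control (log2 ratio 2.79), and in the *Marco* subcluster 254 CPM in NASH and 8.87 CPM in control. *Cd93* and *Cd59a*, also higher, had 679 CPM and 1465 CPM in NASH LSEC-like cells of the *Plpp3* cluster, where *Masp1* had 564 CPM. The LSEC list summed to 7177 CPM in NASH and 6096 CPM in control Kupffer cell-like cells. The stellate cell and fibroblast list, whose cells hold *Colec10* (2185 CPM in NASH), *Colec11* (5480 CPM in NASH) and *Masp1* (3022 CPM in NASH), summed to 295 CPM in NASH and 189 CPM in control Kupffer cell-like cells. The part of either list was not tested. *C1rl* was the gene that was lower, at 10.2 CPM in NASH and 25.7 CPM in control. The most abundant, *Fcna* (4451 CPM in NASH and 5042 CPM in control), *C6* (2698 CPM in NASH and 2790 CPM in control) and *C4b* (1056 CPM in NASH and 1111 CPM in control), differed as little as C1q.

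In the monocyte or macrophage-like class 12 other complement genes had enough UMIs, with 3 higher and 3 lower, beside 26.6% of all genes past 1.5 times. *Cd93*, once described as a C1q receptor, had 589 CPM in NASH and 309 CPM in control, *C1qbp* 64.2 CPM in NASH and 34.6 CPM in control, and *Cd59a* 55.1 CPM in NASH and 16.0 CPM in control. *Itgam*, a chain of complement receptor 3, was lower, at 330 CPM in NASH and 553 CPM in control, as was *C4b* (33.9 CPM in NASH and 66.5 CPM in control). In LSEC-like cells 18 had enough UMIs, with *Colec10* higher and *C4b*, *Colec12*, *Hc* and *C6* lower, beside 10.4% of all genes past 1.5 times. *C5ar2*, the second receptor for C5a, was an endothelial and neutrophil-like transcript, at 351 CPM in NASH and 361 CPM in control LSEC-like cells and 465 CPM in NASH and 383 CPM in control in neutrophil-like cells. *Cr2*, the B cell receptor for C3 fragments, had 1073 CPM (255 UMIs) in NASH and 749 CPM (596 UMIs) in control B cell-like cells (log2 ratio 0.52).

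The genes most like each member in level over the 28 points of class and library were named as a description, since points of a library share its depth and its free RNA. *Ccl24* was the closest gene outside complement to *C1qa* (Pearson r 0.96), *C1qb* (0.94), *C1qc* (0.97) and *C3ar1* (0.94), followed for the C1q genes by *Kcnj10*, *Gm14221* or *Cd5l*. For *C3* it was *Fzd7* (0.81), for *C5ar1* *Fpr2* (0.97), for *Cfp* *P2ry13* (0.87), and for *Cd55* *Mapk12* (0.89), *Nid1* and *Ptprb* (0.88 each). Among the members, the C1q genes correlated with each other at 0.97 to 0.99, with *C3ar1* at 0.93 to 0.94, with *Cfp* at 0.72 to 0.75 and with *C5ar1* at 0.34 to 0.39, and *Cd55* with none above −0.04.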

How the data were processed

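The data were tables of UMI counts per cell and gene, deposited for 1 NASH and 1 control library. The authors made the counts on the BD Rhapsody platform against GRCm38, as the submitters' processing notes name it. The aligner and annotation version are not given in the sources used here. GEO's description field names another platform, and the protocol was followed. The NASH table has no gene names, so its columns were named after the control table's header. This order was checked over the 101 columns around each member, on the logarithm of each column's summed UMIs plus 1. The libraries correlated at 0.973 to 0.984 in this order and at most at 0.382 when shifted by 1. Genes run alphabetically to *Rad54l2*, so totals and CPM cover part of each library, and mitochondrial genes were not used. All sample columns were mapped (0 left out).

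Cells with at least 500 UMIs and 200 genes (7919) were clustered in Seurat 5.3.0 (R 4.3.3) on 2000 variable genes, 50 components and resolution 0.6 (1.2 for subclusters), with 24 complement genes kept out of the variable genes. A cluster took the name of the list with the most markers, and at least 3, among its 50 leading genes. A cluster far below the median depth also needed a marker among its 10 leading genes. The *Cp* and *Pigr* cluster would have taken the cholangiocyte (bile duct cell) name with 6 markers. It was left unnamed, as its 10 leading genes held 1 of these and 2 hepatocyte markers. Doublets were kept. Scrublet (scanpy 1.11.5) marked 3 NASH cells (0.0809%) and 56 control cells (1.33%). Sums per class, exact intervals (scipy 1.17.1) and log2 ratios with 0.5 UMI added to each sum were computed in Python 3.11.15. The scripts were tested on simulated data. With 1 library per diet no test was run.

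The text names the 8 members, other complement genes past 1.5 times or most abundant with at least 50 UMIs in a class, the genes leading clusters, and the 3 genes outside complement with the highest Pearson r of log2(CPM + 10) among genes with at least 500 UMIs. The members, lists and thresholds were chosen with earlier results of these data known. Alternatives changed the minimum of UMIs per cell and gene, the UMI added, the total, the resolution, the clustering genes, the doublets and thinning, which was the expected share of cells with a UMI at a common depth (hypergeometric). Gene positions are from GENCODE M21 and promoters from RefSeq. One gene counted among the other complement genes is not reported here.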

Additional observations from a re-analysis of the deposited data

How the results depend on the processing

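No paired analysis was possible because each diet had 1 library. With 1 pool of 3 mice per diet, differences between mice, libraries and diets cannot be told apart, and depth limited *C3*, *C3ar1* and *C5ar1* outside myeloid cells. Of the log2 ratios, 62 of 62 kept their size within the interval with 1 UMI added and 62 of 62 without the 50 most abundant genes in the total. Other settings moved more of the values. At the finer resolution 6 moved and 55 did not, and with complement genes allowed in the clustering 7 moved and 55 did not. Without the 5% of cells with the highest doublet scores 10 moved and 60 did not. With cells thinned to 1000 UMIs 10 moved and 6 did not. The *C5ar1* ratio of the monocyte or macrophage-like class was −0.0118 in the *Cx3cr1* subcluster alone, and that of *C3* −1.81 there, on 4 against 4 UMIs. *C3* in *Bmp4* VEC-like cells turned to 1.80 without the cells rich in *Dcn*, on 4 against 0 UMIs. Members past 1.5 times numbered 3 of 8 in B cell-like (34% of all genes) and 5 of 8 in neutrophil-like cells (57.9%) with a minimum of 1 UMI, and in *Bmp4* VEC-like cells 2 of 7 at 20 UMIs (24.1%) and 3 of 8 at 1 UMI (40.1%). With complement genes allowed in the clustering, the monocyte or macrophage-like class gave 1.29 for *Cfp* and 0.72 for *C3ar1*. That clustering had no cluster led by *Ace*, and *Ace* was among the leading genes of its *F13a1* cluster (262 NASH and 122 control cells), so the make-up of the class differed. The *Ace* cluster of the main clustering held no *Cfp* or *C3ar1* UMI. Without the 5% of cells with the highest doublet scores, chosen after seeing the data, LSEC-like *C1qa* came to −0.29 and the stellate or fibroblast-like C1q ratios to 2.76 to 3.11. Without the cells Scrublet marks, nearly all of them control cells, neutrophil-like *Cd55* came to 2.10. The cause of these shifts was not tested. The subcluster and *Dcn* alternatives were also chosen after seeing the data.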

Other observations

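Complement genes outside the named 8 were also counted in classes with few cells. Stellate or fibroblast-like cells (16 in NASH and 19 in control) held lectin pathway transcripts, with *Colec11* at 5480 CPM in NASH and 4058 CPM in control, *Fcna* at 3773 CPM in NASH and 3282 CPM in control, *Masp1* at 3022 CPM in NASH and 2914 CPM in control and *Colec10* at 2185 CPM in NASH and 2478 CPM in control. Their classical pathway genes *C1s1* (785 CPM in NASH and 1280 CPM in control) and *C4b* (495 CPM in NASH and 1157 CPM in control) were lower in NASH, as was *C3* (598 CPM in NASH and 1321 CPM in control). Of the *C3* UMIs, 34 of 35 lay in 1 cell in NASH and 96 of 97 lay in 3 cells in control. *Fcna* was also abundant in Kupffer cell-like cells, as given above. The Kupffer cell list summed to 3756 CPM in NASH and 3540 CPM in control stellate or fibroblast-like cells, and its part in their *Fcna* level was not tested. The cluster led by *Cp* and *Pigr* had *Clu*, clusterin, at 25723 CPM in NASH and 25157 CPM in control, with *C4b* at 56.7 CPM in NASH and 210 CPM in control, in the direction of its *C3*. In the cluster led by *Ace*, the integrin chains of the complement receptors were high without *C3ar1* or *Cfp*, with *Itgb2* at 3129 CPM in NASH and 3347 CPM in control and *Itgam* at 952 CPM in NASH and 767 CPM in control.

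Erythroid-like cells had *Cd55* at 607 CPM (340 to 1002; 15 UMIs) in 16 NASH cells and 1430 CPM (800 to 2359; 15 UMIs) in 7 control cells, with overlapping intervals. The LSEC list in these cells summed to 46969 CPM in NASH and 58924 CPM in control, and its part in the *Cd55* level was not tested. Plasma cell-like cells were 5 in NASH and 110 in control, too few for a comparison of their C1q or *Cd55*.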
